A study of Mus musculus with 192 samples.

Results

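The response of the thymus of Nrf2-KO mice to space flight was measured by RNA sequencing of total RNA depleted of rRNA. Of the 192 samples of the series, which cover 9 tissues, 24 are thymus libraries. From these, the libraries with the genotype Nrf2KO were taken, and the condition Flight (FL_KO, 5 mice, with flight mouse 04 left out as the study did) was compared with the condition Ground_control (GC_KO, 6 mice), so that 11 libraries of 192 were used. WT thymus (6 flight and 6 ground mice, FL_WT and GC_WT) was in the same fit and shared its filter, scaling and estimate of the spread. It served to test where the response differed between genotypes and to give reference values.

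All mice were males in the C57BL/6J background (C57BL/6 in the labels) with a labelled age of 12 weeks. The Nrf2-KO mice carry the Nfe2l2 tm1Ymk allele in the whole body, and mice without an intrahepatic shunt were chosen for both arms. They lived singly in the same type of cage unit, in orbit or on the ground. The flight mice spent a month on the International Space Station and were dissected after landing and transport, while the ground experiment was run months later at another site. The methods of the study name a flight food in the flight arm and CRF-1 food in the ground arm. Flight, landing, transport, site, date and any difference in food thus cannot be told apart from each other in the contrast.

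Nrf2, the product of Nfe2l2, is the transcription factor that induces detoxifying and antioxidant enzymes under oxidative and electrophilic stress. The thymus is the organ in which T cells mature. Its cortex is packed with CD4 CD8 double-positive thymocytes that rearrange their T cell receptor (TCR) genes, and its medulla holds mature thymocytes, dendritic cells, B cells and the medullary epithelial cells that display tissue antigens. Thymocytes divide fast and are known to be lost under stress hormones, and the cortex shrinks readily.

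The 11 libraries held 8007523 to 9756559 expected counts each. GC_KO mouse 04 and GC_KO mouse 01 lay farthest from the median of their group, with root mean square distances of 0.44 and 0.422 on the log2 scale, against 0.338 to 0.396 in the other 4 ground mice. Their TMM factors, which correct for the composition of a library, were also the lowest of the 11, at 0.9088 and 0.8968. Counts of several lists are therefore given also without GC_KO mouse 04. Values by mouse are normalised read counts in CPM with TMM factors, and log2 fold changes are given with their standard error.

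Nfe2l2 itself checked the genotype labels. It stood at 29.4, 31.9, 32.1, 26.6 and 33.1 CPM in the 5 FL_KO mice and between 21.6 and 30.6 (median 27) in the 6 GC_KO mice. In WT thymus it lay between 55.5 and 69.2 CPM, so that all 11 Nrf2-KO libraries were below all 12 WT libraries, and reads of the gene were still present in the knockout. Flight raised it slightly in the Nrf2-KO thymus, by a log2 fold change of 0.21 ± 0.0728 (adjusted p = 0.0267), but this call was lost in 8 of 22 alternatives, among them leaving out any 1 of FL_KO mice 02, 09 and 12 and GC_KO mice 01 and 02 (0.15 to 0.19).

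Flight changed a large share of the thymus transcriptome of Nrf2-KO mice, in both directions. Genes of double-positive thymocytes, cell division, histones, TCR beta segments and cholesterol synthesis were lower in FL_KO. Many markers of early and mature thymocytes, medullary epithelium, dendritic cells, macrophages and B cells, MHC class II genes and interferon-stimulated genes were higher. At an adjusted p under 0.05 in edgeR's quasi-likelihood test, 3150 of 16307 genes tested (19.3%) were higher and 3083 (18.9%) were lower. Without GC_KO mouse 04 these shares were 18.2% and 21.9%. The median log2 fold change over all genes tested was -0.01. In bulk tissue, fewer cells of a type and less RNA of a gene per cell cannot be told apart, and a share of one cell type that falls moves the shares of all others.

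The scale matters for small changes. More TPM of these libraries than that of all other genes together belonged to 5 short noncoding RNAs (Rn7sk, Rn7s1, Rn7s2, Rpph1 and Rmrp; 50.9% to 59% in the 11 libraries). On log2(TPM + 1) the median gene was 0.16 higher in FL_KO, and 92% of the genes called were higher, against 50.5% in the count fit. Medians of lists on that scale are given relative to this shift.

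**Figure D1:**
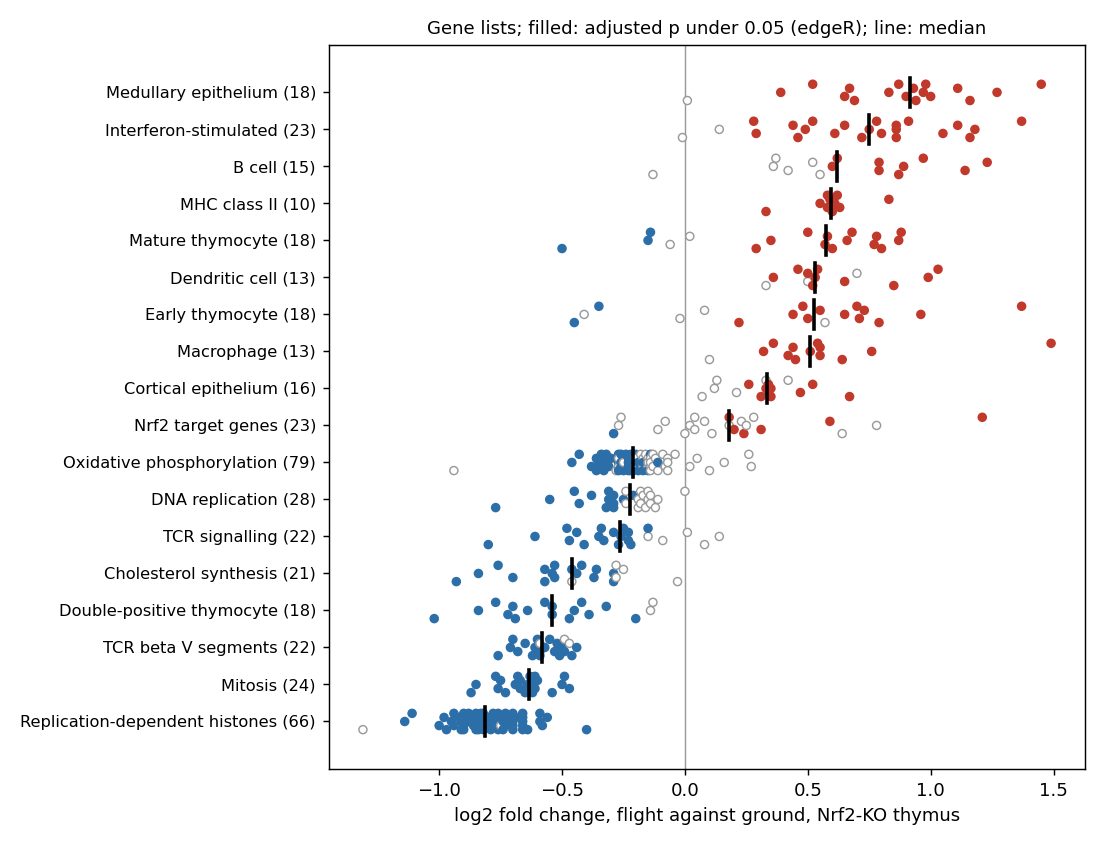
Log2 fold change of FL_KO against GC_KO for the members of 18 gene lists, with the number of members tested in parentheses. Filled points passed an adjusted p of 0.05, red for higher and blue for lower, and vertical lines are medians, which run from -0.81 for histones to 0.91 for medullary epithelium.

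The genes of double-positive thymocytes were the clearest group of T lineage genes that fell. Of 18 list members, 16 were lower and none was higher, with a median log2 fold change of -0.54 and no overlap between the groups for those 16. Over all genes tested, 9.81% were lower without overlap. Cd8b1, the beta chain of the CD8 coreceptor, had 439, 484, 550.3, 528 and 494 CPM in the FL_KO mice and 787 to 919 (median 863) in the GC_KO mice. All flight values lay below all ground values, and the log2 fold change was -0.77 ± 0.0689 (adjusted p = 6.49e-08). Cd4, its counterpart, had 523, 557, 622, 563 and 517 CPM in flight against 767 to 955 (median 873), a log2 fold change of -0.64 ± 0.0637 (adjusted p = 2.02e-07).

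The recombination genes went the same way. Rag1, which with Rag2 cuts the receptor genes for rearrangement, had 3086, 3407, 3742, 3561 and 3101 CPM in flight against 4269 to 5276 (median 5137) on the ground. The lowest ground value was that of GC_KO mouse 04, still above every flight value, and the log2 fold change was -0.57 ± 0.065 (adjusted p = 9.87e-07). Rag2 fell by 0.70 and Dntt, the terminal transferase that adds untemplated bases, by 0.69 on the log2 scale. Themis, a regulator of positive selection, fell by 0.45. Endou was among the genes with the largest falls of any gene named by rule, at -1.02 ± 0.125. On the TPM scale 9 of the 18 were lower, with a list median of -0.43 relative to all genes.

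TCR components and proximal signalling genes fell less. Of 22 members, 17 were lower and none higher, with a median of -0.26, which went to 0.01 on the TPM scale (-0.16 relative to all genes). Zap70, the kinase that binds the activated receptor, had 91.1, 98, 96.6, 101 and 92.5 CPM in flight against 124 to 131 on the ground. The groups did not overlap, and the log2 fold change was -0.41 ± 0.0419 (adjusted p = 2.86e-07). Cd247, the zeta chain, fell by 0.44, Lck, the kinase tied to the coreceptors, by 0.48, and Trbc2, a constant segment of the beta chain, by 0.61.

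Variable segments of the beta chain fell together, with 19 of 22 lower, none higher and a median of -0.58. Trbv13-1 had 11.7, 13, 12.9, 13.9 and 11.7 CPM in flight against 19 to 23 on the ground, a log2 fold change of -0.76 ± 0.0729. Alpha segments did not fall as a group, since 4 of 73 tested were higher and 6 were lower, with a median of -0.06. The lower calls lay at 1 end of the locus. Of the 25 segments of the 5′ part and the 24 in the middle, in locus order on chromosome 14 (GRCm38), none was lower. Of the 24 nearest to the J segments 6 were lower, where 18.9% of all genes tested were lower.

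Trav17 (chr14:53806639-53807115), near the 3′ end, had 0.702, 0.468, 0.661, 0.772 and 0.481 CPM in flight against 1.37 to 2.21 on the ground. Its log2 fold change was -1.36 ± 0.351 (adjusted p = 0.00344), with Trav19 at -1.34 and Trav21-dv12 at -1.07. Trav11d, at the 5′ end, was higher by 0.61 ± 0.191 (adjusted p = 0.0139). Medians were 0.17, 0.13 and -0.40 from the 5′ part to the 3′ part. The same split held without GC_KO mouse 04 (2, 2 and 0 higher, 0, 0 and 6 lower), and WT thymus gave medians of 0.27, 0.33 and -0.35. These counts are low, and among the 28 segments with a mean of at least 2 CPM only 2 of 11 in the 3′ part were lower, with medians of -0.06, 0.03 and -0.09 from the 5′ part to the 3′ part. Near-identical copies also share reads, so that single alpha segments of the duplicated 5′ and middle parts are uncertain.

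**Figure D2:**
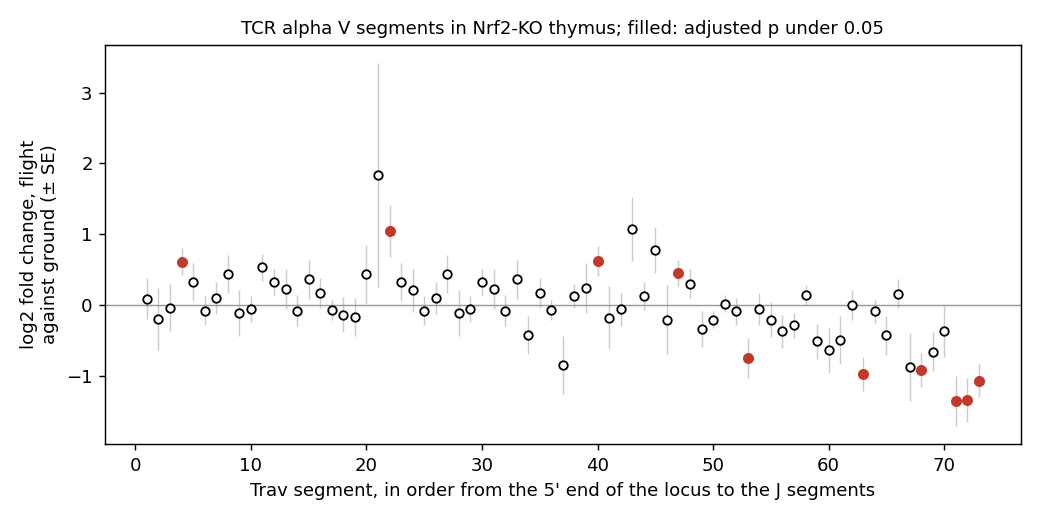
Log2 fold change (± SE) of each of 73 TCR alpha V segments, in their order along the locus from the 5′ end to the J segments. Filled points passed an adjusted p of 0.05, and the 6 segments that were lower all lie among the 24 nearest to the J segments. Of the 11 segments there with a mean of at least 2 CPM, 2 were lower.

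Cell division genes were lower without exception among those listed. All 24 mitosis genes fell (median -0.63), and none of them overlapped between the groups. Cdc20, which activates the anaphase-promoting complex, had 56.1, 50.4, 63.2, 61.6 and 58 CPM in flight against 86.8 to 116 (median 106) on the ground. Every flight mouse was below every ground mouse, with a log2 fold change of -0.85 ± 0.107 (adjusted p = 2.56e-06). Ube2c, the ubiquitin-conjugating enzyme of the same complex, fell by 0.87, Prc1, which bundles the central spindle, by 0.76, and Cdca8, a subunit of the chromosomal passenger complex, by 0.68. All 24 were also lower without GC_KO mouse 04, and on the TPM scale 20 of 24 were.

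Histone genes that are made only during S phase fell more. Of 66 tested, 64 were lower, none was higher, and the median was -0.81. Hist2h4 had 182, 204, 213, 213 and 219 CPM in flight against 357 to 424 on the ground, a log2 fold change of -0.91 ± 0.0967 (adjusted p = 4.67e-07). Hist3h2ba had the largest fall of the histone genes named by rule, at -1.14 ± 0.143, with 30.8, 30.7, 44.4, 40.3 and 32.7 CPM against 74 to 86.7. Histone genes lie in copies that share reads, but their sum does not depend on the split. It was 1.63% ± 0.0972 (SD, n = 5) of all counts in flight and 2.63% ± 0.218 (SD, n = 6) on the ground, and an exact two-sided permutation test over mice gave p = 0.00433, the smallest that this design allows (adjusted p = 0.013 over 3 library measures). The other measures, total count and mitochondrial share, gave adjusted p = 0.175 and 0.658 in the same exact test.

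Replication factors moved less than histones. Of 28 genes, 13 were lower, none was higher, and the median was -0.22. E2f2, an activator of S phase genes, had 154, 157, 188, 173 and 202 CPM in flight against 268 to 323 on the ground, a fall of 0.77 on the log2 scale (SE 0.111). Rrm2, a subunit of ribonucleotide reductase, fell by 0.55, and Tyms, thymidylate synthase, by 0.45. These calls depended on mice and scale, since without mice 01 and 02 of both groups 1 of the 28 was lower, and on the TPM scale 1 of 27 was.

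The promoters of mitosis genes are shown because a pair of short motifs recurs in them. In the 250 bases before the RefSeq start, 18 of the 20 lower mitosis genes with an entry (90%) held CCAAT, the NF-Y motif, on either strand, against 40.2% of the promoters of genes tested, and 8 (40%) held TTTGAA, the core of the CHR element, against 13.3%. The last 150 bases before the start are printed from RefSeq (GRCm38.p6), 5′ to 3′ on the strand of the gene, with matches in capitals (CCAAT reads ATTGG on the other strand), for Cdc20 (chr4:118437344-118437493, minus strand) and Cdca8 (chr4:124936918-124937067, minus strand).

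Cdc20: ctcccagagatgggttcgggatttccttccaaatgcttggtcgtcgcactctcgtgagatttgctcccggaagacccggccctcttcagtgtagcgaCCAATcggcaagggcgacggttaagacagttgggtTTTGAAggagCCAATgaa

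Cdca8: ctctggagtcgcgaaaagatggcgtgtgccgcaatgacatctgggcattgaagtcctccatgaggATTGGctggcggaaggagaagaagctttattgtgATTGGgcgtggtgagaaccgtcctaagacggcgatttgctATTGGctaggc

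Cdc20 holds 2 CCAAT and 1 TTTGAA here, and Cdca8 holds 3 CCAAT and no TTTGAA. A match is a description of the letters only. Cholesterol genes are another such case, with CCAAT in all 10 lower members that had an entry.

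Genes of cholesterol synthesis and uptake were lower. Of 21 tested, 16 fell, none rose, and the median was -0.46. Insig1, which retains the sterol sensor in the endoplasmic reticulum and is itself induced when sterols are low, had 18.8, 19.1, 22.5, 22 and 24.8 CPM in flight against 30.7 to 49.4 (median 41.3). No values overlapped, and the log2 fold change was -0.93 ± 0.106 (adjusted p = 9.87e-07). Srebf2, the transcription factor of the pathway, fell by 0.44, and Cyp51, a demethylase of the pathway, by 0.84. On the TPM scale 2 of 19 members were lower, with a median of -0.34 relative to all genes.

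Large housekeeping groups shifted by little. Among genes of oxidative phosphorylation encoded in the nucleus 45 of 79 were lower (median -0.21), among ribosomal protein genes 34 of 78 (-0.17), and among proteasome genes 18 of 38 (-0.17). Without GC_KO mouse 04 the counts were 53, 41 and 24, and without mice 01 and 02 of both groups 21, 16 and 12. The largest values in these groups were modest, such as -0.46 ± 0.055 for Ndufv3, a subunit of complex I. On the TPM scale 0 of 75, 0 of 77 and 0 of 38 were lower and 2, 7 and 6 were higher. The medians there were 0.05, 0.10 and 0.08 before the shift was taken off, and -0.11, -0.07 and -0.08 relative to all genes. The calls of these 3 groups thus rest on the scale. None of the 12 mitochondrially encoded mRNAs tested passed in either direction, and on the TPM scale 6 of 12 were higher (median 0.18 relative to all genes).

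**Figure D3:**
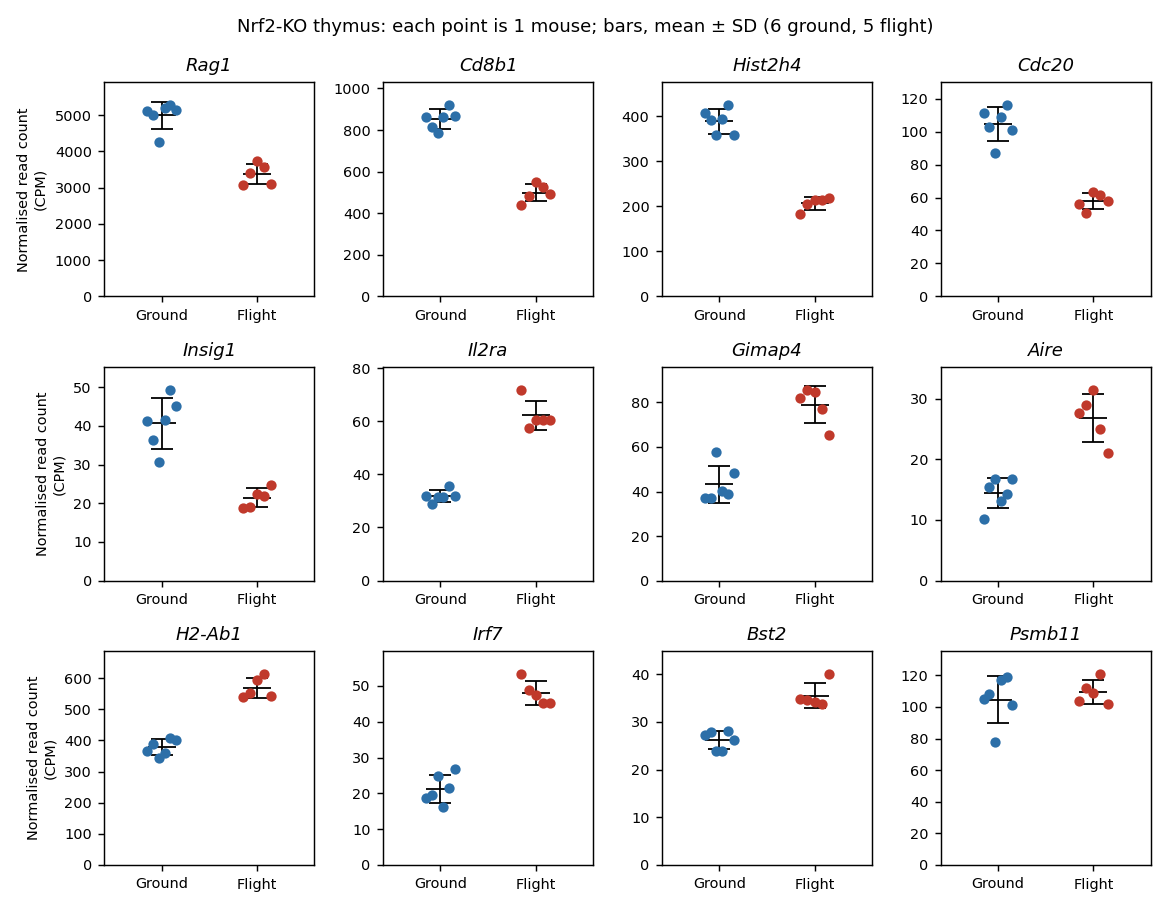
Normalised read count (CPM) of 12 genes in each GC_KO mouse (blue, 6) and each FL_KO mouse (red, 5), with mean and SD. Of the 12 genes, Psmb11 overlaps between the groups and the other 11 do not.

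Most markers of the earliest thymocytes rose. Of 18 list members, 12 were higher and 2 were lower, with a median of 0.52. The summed level of the list was lower in flight without overlap in CPM (2677 to 2841 against 3067 to 3304). In TPM the sums overlapped (777 to 861 against 714 to 978). Il2ra, the CD25 chain that marks double-negative cells, had 71.9, 57.5, 60.4, 60.6 and 60.3 CPM in flight against 29 to 35.7 (median 31.6). The groups were well apart, with a log2 fold change of 0.96 ± 0.105 (adjusted p = 6.35e-07). Dtx1, a Notch target, had 43.6, 47.2, 34.7, 38.4 and 26.7 CPM against 12.4 to 17.5, a log2 fold change of 1.37 ± 0.179. Notch3 rose by 0.50 ± 0.0599 and Kit, the stem cell factor receptor, by 0.48 ± 0.0948. The exceptions were Tcf7 and Bcl11b, both T lineage transcription factors that double-positive cells also express, at -0.45 ± 0.0539 and -0.35 ± 0.0886.

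Among mature thymocyte genes 13 of 18 were higher and 3 lower (median 0.58). The summed level of the list overlapped between the groups, at 1402 to 1664 CPM (median 1620) in flight and 1530 to 1708 (median 1644) on the ground. In TPM the sums overlapped too, at 525 to 668 (median 622) in flight and 448 to 576 (median 534) on the ground. The shift of all genes on that scale was not taken off these sums. Gimap4, a GTPase of mature lymphocytes, had 82.2, 85.8, 84.5, 77.1 and 65.2 CPM in flight against 37.1 to 57.8 (median 39.5), a log2 fold change of 0.87 ± 0.112. S1pr1, the receptor by which mature cells leave the thymus, had 28.9, 33.2, 29.5, 27.2 and 28.5 CPM against 14.1 to 22.9, a log2 fold change of 0.77 ± 0.126. Both genes were separated in all mice. Klf2, the factor that drives S1pr1, rose by 0.57 ± 0.135, Runx3, the CD8 lineage factor, by 0.68 ± 0.0939, and Itgb7, an integrin chain, by 0.58 ± 0.0887. Ccr9, the receptor for Ccl25 that double-positive cells carry too, was lower by 0.50 ± 0.0556 on the log2 scale, and Il4ra was lower in the count fit (-0.15) but at 0.11 on the TPM scale.

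Genes of regulatory and innate-like T cells were higher in part. In the regulatory list 7 of 10 were higher and none lower, but 3 were higher without mice 01 and 02 of both groups. Foxp3, its defining factor, had 3.86, 3.39, 3.42, 2.98 and 2.53 CPM in flight against 0.801 to 3.48 (median 1.65) on the ground. The groups overlapped, with a log2 fold change of 0.83 ± 0.298 (adjusted p = 0.0294), and the call was lost in 8 of 19 alternatives, among them leaving out any 1 of FL_KO mice 01, 02 and 09 and GC_KO mice 01 and 09 (0.65 to 0.82). Among innate-like genes 6 of 13 were higher, with sums of 164 to 209 CPM in flight and 180.0 to 198 on the ground. Ccl5, a chemokine of cytotoxic cells, was at 1.09 ± 0.165 with no overlap, as was Gzmb at 1.15 ± 0.289. Trdc, the constant segment of the delta chain, was the 1 member lower, at -0.45 ± 0.119.

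The medullary epithelium stood out among the stromal cells. Of 18 members tested, 17 were higher, none was lower, and the median was 0.91. Aire, the regulator that lets these cells express tissue antigens, had 27.6, 29, 31.5, 25 and 21 CPM in flight against 10.2 to 16.8 (median 14.9) on the ground. Every flight mouse was above every ground mouse, with a log2 fold change of 0.90 ± 0.135 (adjusted p = 1.79e-05). Tnfrsf11a, the receptor RANK through which these cells mature, had 23, 22.3, 26.6, 24 and 22.6 CPM against 11.1 to 16.1, a log2 fold change of 0.87 ± 0.121.

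Other medullary genes covered several kinds of these cells. Epcam, an adhesion molecule of epithelium, rose by 0.67 ± 0.0851, Krt5, a keratin, by 0.69 ± 0.167, and Fezf2, the other regulator of tissue antigens, by 0.83 ± 0.177. Ccl19, a chemokine that draws thymocytes to the medulla, rose by 1.27 ± 0.162 from a low level, and Avil, a tuft cell gene, by 1.45 ± 0.195 with 11.9, 14.6, 18.8, 14.8 and 19.5 CPM against 2.75 to 8.36. The summed level of the list was 591 to 758 CPM in flight and 351 to 531 on the ground, with no overlap.

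Cortical epithelium changed less. Of 16 members 10 were higher, none was lower, and the median was 0.33. The summed level of the list was still higher in flight without overlap (3344 to 3783 CPM against 2465 to 3195). Psmb11, the proteasome subunit found only in these cells, had 104, 112, 109, 121 and 102 CPM in flight against 77.8 to 119 on the ground, with a log2 fold change of 0.07 ± 0.127 (adjusted p = 0.707). Ccl25, the chemokine that draws thymocyte precursors, was not called either, at 0.13 ± 0.108. Prss16, a protease of these cells, was higher by 0.31 ± 0.0838, and Pax1, a factor of the thymic anlage, by 0.47 ± 0.105.

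Many genes of macrophages, dendritic cells and B cells were higher. In the macrophage list 12 of 13 rose (median 0.51), and its summed level was 886 to 1035 CPM in flight against 630.1 to 702 on the ground. Csf1r, the receptor on which macrophages depend, had 56.9, 51.8, 70.4, 68.4 and 62.2 CPM against 31.5 to 41, a log2 fold change of 0.76 ± 0.13. C1qa, a complement subunit, and Lyz2, lysozyme, were higher by 0.54 ± 0.13 and 0.64 ± 0.106.

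In the dendritic list 10 of 13 rose (median 0.53), with sums of 315 to 348 CPM against 198 to 241. Ccl22, a chemokine of activated dendritic cells, had 28.8, 34, 42.3, 40.3 and 35.2 CPM in flight against 12.8 to 27.2, a log2 fold change of 0.99 ± 0.162, and Fscn1, an actin bundler of mature dendritic cells, was higher by 0.85 ± 0.155. In the B cell list 9 of 15 rose (median 0.62), with overlapping sums (1028 to 1589 CPM against 816 to 1264). Without mice 01 and 02 of both groups 6 of 13 dendritic and 5 of 15 B cell genes were higher. Ms4a1, which encodes CD20, had 6.67, 9.94, 5.73, 6.07 and 5.89 CPM against 2.19 to 4.18, a log2 fold change of 1.23 ± 0.191, and Cd79b was not called (-0.13 ± 0.109).

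Fibroblast and vessel genes rose in part. The mesenchyme list had 11 of 17 higher and the endothelial list 9 of 11, with none lower. Mesenchyme sums did not overlap (519.6 to 677 CPM in flight, 322 to 451 on the ground). Endothelial sums did (213 to 272 against 204 to 237). Col6a1, a collagen VI chain, had 77.2, 78.1, 94.2, 76.1 and 71.2 CPM in flight against 39.1 to 57.8, a log2 fold change of 0.78 ± 0.128, whereas Col1a1 was at -0.11 ± 0.212 and not called. Emcn, an endothelial surface protein, rose by 1.20 ± 0.188 and Pecam1, which is also carried by leukocytes, was at -0.06 ± 0.0619.

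Markers of neighbouring tissues gave few calls, apart from muscle. No adipocyte gene of 14 was called (5 were higher without mice 01 and 02 of both groups), with sums of 158 to 374 CPM in flight and 138 to 317 on the ground. Summed markers of parathyroid, thyroid and lymph node ran from 2.69 to 225 CPM in flight and from 3.99 to 158 on the ground, and 0 of 3 tested were called. Of 14 skeletal and heart muscle markers 4 passed the filter and 3 were called. Actn3, an actinin of fast fibres, and Myh4, a fast myosin, were higher without overlap (0.88 ± 0.141 and 1.10 ± 0.261), and Mylpf, a myosin light chain, was lower (-0.60 ± 0.152). Their sum was 20.2 to 27.6 CPM in flight and 16.2 to 20.9 on the ground, and its part in other results was not tested. Red cell markers were low, at 13.1 to 33 CPM against 14.2 to 43.5 in sum over 4 genes.

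Interferon-stimulated genes rose together. Cells make these antiviral genes when interferon activates its transcription factors, and the thymic medulla is known to express interferon without infection. Of 23 members, 21 were higher, none was lower, and the median was 0.75. Irf7, the factor that amplifies the interferon response, had 53.4, 49, 47.5, 45.3 and 45.3 CPM in flight against 16.1 to 26.9 (median 20.5) on the ground. The lowest flight value was above the highest ground value, and the log2 fold change was 1.18 ± 0.129, or 2.27-fold (adjusted p = 6.44e-07).

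Usp18, a protease that removes the ubiquitin-like Isg15, had 40.1, 33.7, 34.7, 38.1 and 38 CPM in flight against 18 to 25.5, a log2 fold change of 0.80 ± 0.0913. Oas2, a sensor of double-stranded RNA, had 23.2, 22.2, 16.6, 19.5 and 24.8 CPM against 4.22 to 9.92, a log2 fold change of 1.37 ± 0.182. Zbp1, a sensor of Z-form nucleic acid, rose by 0.72 ± 0.0857. Ifi206, Ifi213 and Slfn1, which were outside the list and are known as interferon-inducible, were among the 12 genes with the largest rise by rule, at 1.32 ± 0.129, 1.34 ± 0.194 and 1.32 ± 0.174. The count over the list was 21 of 23 without GC_KO mouse 04 as well, and 21 of 22 on the TPM scale.

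Promoters of these genes are shown because most hold the element that interferon-activated factors bind. The interferon-stimulated response element (ISRE), searched on both strands as a pair of TTTC runs with 2 bases between them and chosen after the values were seen, was present in 9 of the 13 higher members with a RefSeq entry (69.2%), against 3.38% of the promoters of genes tested. The antioxidant response element core TGACNNNGC, the motif of Nrf2, was in 3 of the 13 (23.1%) against 13.7%. The last 150 bases before the start are printed for Isg15 (chr4:156200819-156200968, minus strand), chosen for its motifs, and Bst2 (chr8:71537473-71537622, minus strand), with the ISRE in capitals. Overlapping matches run together, 3 in Isg15 and 2 in Bst2.

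Isg15: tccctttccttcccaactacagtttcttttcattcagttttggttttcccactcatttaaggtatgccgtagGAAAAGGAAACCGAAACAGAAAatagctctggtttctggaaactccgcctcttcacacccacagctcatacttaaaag

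Bst2: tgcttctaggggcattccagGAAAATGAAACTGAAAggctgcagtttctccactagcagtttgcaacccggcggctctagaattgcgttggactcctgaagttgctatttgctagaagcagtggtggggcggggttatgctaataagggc

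Isg15, the ubiquitin-like protein, had 9.12, 5.84, 9.26, 10.3 and 12.6 CPM in flight against 4.57 to 9.2 on the ground, overlapping, with a log2 fold change of 0.65 ± 0.172 (adjusted p = 0.00447). Bst2, or tetherin, which holds budding virus at the membrane, had 34.8, 34.5, 34.1, 33.8 and 40.1 CPM against 23.8 to 28, without overlap and with a log2 fold change of 0.44 ± 0.0802. The promoter window of Irf7 held no ISRE match.

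MHC class II genes, by which dendritic cells, B cells and thymic epithelium present antigen to CD4 cells, were all higher. All 10 members rose without overlap (median 0.60), where 10.7% of genes tested were higher without overlap. H2-Ab1 had 539.8, 551, 593, 614 and 543 CPM in flight against 344 to 408 on the ground, a log2 fold change of 0.59 ± 0.0773, and H2-Eb1 had 288, 298, 297, 298 and 266 against 169 to 209.8, a log2 fold change of 0.60 ± 0.08. H2-Ob, which dampens peptide loading in B cells and medullary epithelium, rose by 0.83 ± 0.112. All 7 members with a RefSeq entry held CCAAT, which forms the Y box of these promoters. It is in capitals, read on either strand, in the last 150 bases before the start of H2-Eb1 (chr17:34305717-34305866, plus strand) and H2-Ob (chr17:34238755-34238904, plus strand).

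H2-Eb1: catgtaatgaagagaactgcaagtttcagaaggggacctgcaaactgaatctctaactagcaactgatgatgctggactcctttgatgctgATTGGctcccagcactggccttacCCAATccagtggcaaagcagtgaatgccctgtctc

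H2-Ob: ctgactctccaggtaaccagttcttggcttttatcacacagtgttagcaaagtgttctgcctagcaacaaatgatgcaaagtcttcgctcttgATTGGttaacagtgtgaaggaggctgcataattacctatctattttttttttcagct

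Whether the response differed from that of WT thymus was tested gene by gene as an interaction. In edgeR no gene passed an adjusted p of 0.05. At an unadjusted p under 0.05, 827 genes (5.07%) had a higher and 515 (3.16%) a lower response in Nrf2-KO thymus, and DESeq2 called 9 genes at an adjusted p under 0.05. The groups that stood out by counts were interferon-stimulated genes, with 18 of 23 at an unadjusted p under 0.05 for a higher response in Nrf2-KO, medullary epithelium with 11 of 18, MHC class II with 7 of 10 and dendritic cells with 8 of 13. None of their members passed the adjusted threshold in edgeR. These members are correlated within a mouse and are not independent.

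Medians of the flight response in WT thymus were 0.28 for interferon-stimulated genes, 0.36 for medullary epithelium and 0.26 for MHC class II, below those of Nrf2-KO thymus (0.75, 0.91 and 0.60). The levels differed at both ends. Median sums on the ground were lower in GC_KO than in GC_WT (734 against 804, 367 against 480.5 and 1759 against 1917 CPM). In flight they were higher in FL_KO than in FL_WT (1097 against 941, 642 against 548 and 2691 against 2396 CPM). The ranges of the genotypes overlapped each time. Without GC_KO mouse 04 the counts at an unadjusted p under 0.05 for a higher response were 17 of 23, 10 of 18 and 7 of 10, against 5.2% of all genes. For Irf7 the response was 0.72 ± 0.179 higher on the log2 scale than in WT (unadjusted p = 0.000438), and for Usp18 it was 0.62 ± 0.126 higher (unadjusted p = 4.99e-05, adjusted p = 0.273; DESeq2 adjusted p = 0.0235). Bst2 was at -0.08 in WT. The genes with the smallest unadjusted p also held Dsg2, a desmosomal cadherin, H2-Q6, an MHC class I gene of a family whose copies share reads, and Il18r1, a cytokine receptor, each with a higher response in Nrf2-KO (0.54 ± 0.116, 0.76 ± 0.164 and 0.83 ± 0.188, each with an adjusted p of 0.273 to 0.3).

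Cell division was otherwise. None of the 24 mitosis genes and none of the 66 histone genes had an unadjusted p under 0.05 for a difference, and their medians were -0.57 and -0.66 in WT against -0.63 and -0.81 in Nrf2-KO. In the double-positive list 5 of 18 had a larger fall in Nrf2-KO at an unadjusted p under 0.05.

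**Figure D4:**
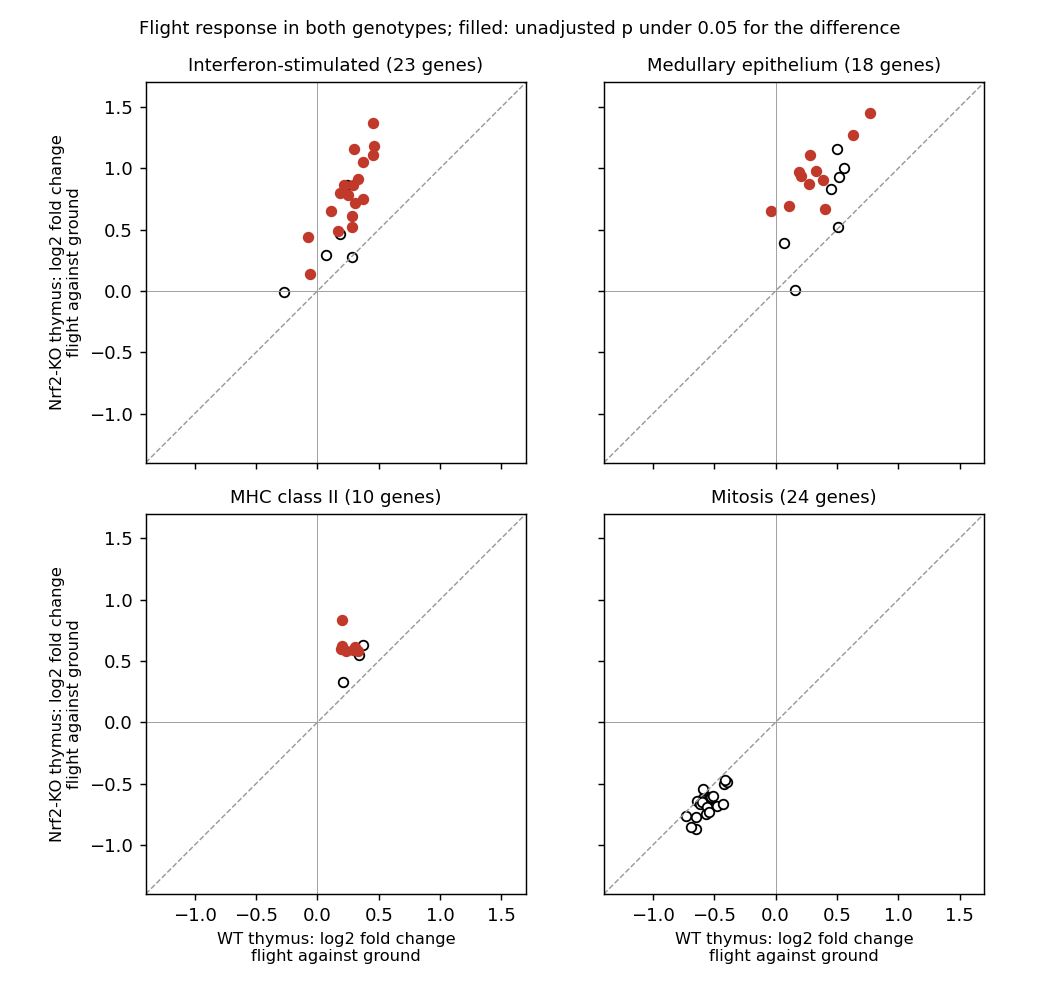
Log2 fold change of flight against ground in Nrf2-KO thymus (vertical) and WT thymus (horizontal) for 4 gene lists, with a dashed line of equal response. Filled points had an unadjusted p under 0.05 for the difference; they number 18 of 23, 11 of 18, 7 of 10 and 0 of 24, and none passed after adjustment.

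Nrf2 target genes were tested in the knockout with the list of 26 genes that the study used. Of 23 that passed the filter, 6 were higher and 1 was lower, with a median of 0.18. In the count fit the higher share (26.1%) lay near the background of 19.3%. On the TPM scale 12 of 19 were higher and 0 lower, where 3407 of 10025 genes were higher. The median there was 0.15 relative to all genes. In WT thymus, in the count fit, 8 of the 23 were higher and 1 lower, with a median of 0.18. Nqo1, a quinone reductase, had 22.1, 22, 22.7, 28.5 and 22.3 CPM in flight against 12.8 to 22.1 (median 19.9) on the ground, a log2 fold change of 0.31 ± 0.119 (adjusted p = 0.043). Its lowest ground value was that of GC_KO mouse 04. The call was lost in 9 of 22 alternatives, among them leaving out that mouse (0.20, adjusted p = 0.132).

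Hmox1, heme oxygenase, had 7.48 to 10.6 CPM (median 9.26) against 5.78 to 9.5 and was not called (0.18 ± 0.148, adjusted p = 0.371). Fth1, the ferritin heavy chain, rose by 0.20 ± 0.0638, Gsr, glutathione reductase, by 0.24 ± 0.0794 and Gsta2, a glutathione transferase near 1 CPM, by 1.21 ± 0.381. Taldo1, transaldolase, was lower at -0.29 ± 0.0618. The balance of the list moved with 1 mouse, since without GC_KO mouse 04 it held 3 higher and 4 lower genes. No member had an unadjusted p under 0.05 for a higher response than in WT, and 2 had one for a lower response.

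Some stress-responsive genes divided the mice by number in both groups. Hspa1a, Hsph1, Tsc22d3 and Fkbp5 fall outside the rule for named genes and were chosen after their values were seen, as was Isg15. Hspa1a, an inducible HSP70, had 47.4 and 64.5 CPM in FL_KO mice 01 and 02 and 15.9, 15.2 and 17.2 in mice 09, 11 and 12. On the ground it had 38.2, 20.1 and 15.8 in mice 01, 02 and 04 and 9.26, 11.3 and 10.3 in mice 09, 11 and 12. In both groups the mice with the low numbers were above those with the high numbers. Equal numbers in flight and ground are different animals.

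Tsc22d3, which encodes the glucocorticoid-induced protein GILZ, had 224, 210.2, 72.2, 62.2 and 49.2 CPM in FL_KO mice 01, 02, 09, 11 and 12. On the ground it had 280.5, 203 and 176 in mice 01, 02 and 04 and 98.9, 59.8 and 67.5 in mice 09, 11 and 12. Fkbp5 and Hsph1, another pair of such genes, and Zbtb16, which glucocorticoids also induce, were split alike. With this spread, 2 of 17 heat shock genes and 2 of 15 glucocorticoid-responsive genes were called, and Tsc22d3 was at -0.26 (adjusted p = 0.655). With the mouse number as a block, 6 heat shock genes and 5 glucocorticoid-responsive genes were higher. Hspa1a and Hsph1 were higher in flight at each of the 5 shared numbers, although equal numbers are different animals. Hspa8, another heat shock gene, was lower in flight at number 01 (3699 against 4334 CPM) and higher at the other shared numbers. The heat shock genes called were Bag3 (0.57 ± 0.102) and Hspb1 (0.77 ± 0.206). Without mice 01 and 02 of both groups, 24 of 24 mitosis genes, 16 of 18 double-positive genes and 58 of the histone genes were still lower, and 19 of 23 interferon-stimulated genes and 16 medullary epithelial genes were still higher, whereas dendritic, B cell, regulatory T cell and replication genes lost calls.

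**Figure D5:**
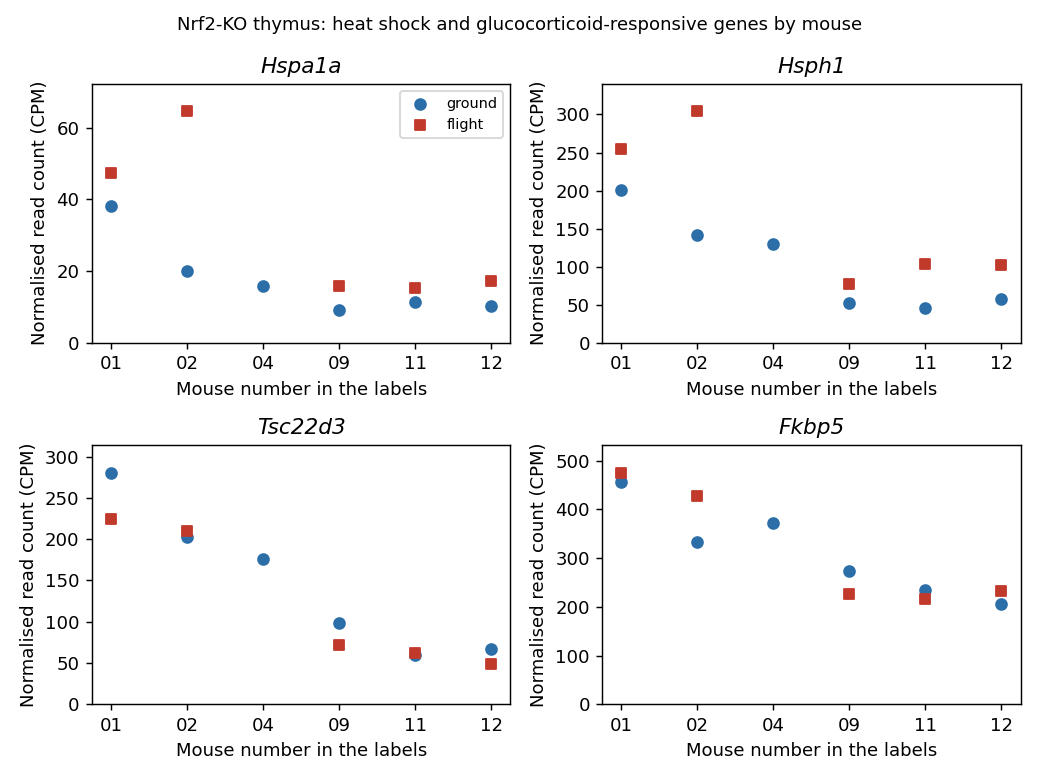
Normalised read count (CPM) of 2 heat shock genes (Hspa1a, Hsph1) and 2 glucocorticoid-responsive genes (Tsc22d3, Fkbp5) against the mouse number of the labels, in GC_KO (blue circles) and FL_KO (red squares, mouse 04 left out). Hspa1a lies between 15.8 and 64.5 in mice 01, 02 and 04 and between 9.26 and 17.2 in mice 09, 11 and 12.

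Among other stress pathways, 6 of 17 genes of the unfolded protein response were higher, 1 was lower, and the highest calls were chaperones. Hspa5, the chaperone BiP, had 285, 308, 253, 277 and 249.7 CPM in flight against 183 to 241, a log2 fold change of 0.40 ± 0.0735 without overlap, and Hsp90b1 rose by 0.29 ± 0.057. Targets of p53 were divided, with 6 of 19 higher and 5 lower. Trp53inp1, which double-positive cells express strongly, fell by 0.53 and Fas, the death receptor, by 0.41 on the log2 scale.

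Bcl2, the survival factor, was higher by 0.45 ± 0.0899 (132, 110.1, 98.9, 97.1 and 90.3 CPM against 68 to 87.9) and Apaf1, the core of the apoptosome, lower at -0.28 ± 0.055. Clock genes showed Arntl lower (-0.42 ± 0.0579) with Clock (0.36 ± 0.0596) and the repressor Bhlhe40 (0.70 ± 0.0888) higher, and 6 of 18 were higher and 3 lower in all. The hour of dissection was not given in the sources used here, and its part in this was not tested.

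By size, the 12 genes with the largest rise by rule also held Apod, a lipid-binding lipocalin, with 19.8 to 25.4 CPM in flight against 5.78 to 7.81. That was a log2 fold change of 1.68 ± 0.159, or 3.21-fold (adjusted p = 1.38e-07). Ccl11, the eosinophil chemokine eotaxin, had 27.4, 36.4, 45.3, 27.1 and 26.1 CPM against 7.62 to 16.1 (1.42 ± 0.207). The 12 with the largest fall were led in number by histone genes, 6 of the 12, beside Trav17, Trav21-dv12, Endou, Ybx2, the microRNA gene Mir6236 and Pimreg, a gene of mitotic cells at -1.06 ± 0.132.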

How the data were processed

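Thymus total RNA was depleted of rRNA and sequenced as single reads. The authors aligned the reads to mm10 with STAR 2.6.1 and estimated gene levels with RSEM 1.3.1, per the labels and the submitters' processing notes. Libraries came from a strand-specific kit, but the strand option of RSEM is not given in the sources used here, so overlapping and antisense genes may share reads. The deposited table holds an expected count (not normalised) and a TPM (transcripts scaled to a fixed total per sample, by the authors) for each of 54752 genes and each sample, and 528 value columns of other samples were not used. Repeated symbols (93) were followed by their identifier, and coordinates came from GENCODE for GRCm38, which held 99.95% of the identifiers.

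Expected counts were rounded, filtered with filterByExpr, scaled by TMM and tested with the quasi-likelihood test of edgeR 4.0.16 (R 4.3.3), with the 4 thymus groups in 1 fit and flight mouse 04 (Nrf2-KO) left out. A gene was called at a Benjamini-Hochberg adjusted p under 0.05 over all genes tested. The interaction was (FL_KO minus GC_KO) minus (FL_WT minus GC_WT). SE was the log2 fold change divided by the square root of F. Library measures were compared by an exact two-sided permutation test over mice, whose smallest p is 0.00433. The fit was also run on simulated data with few changed genes, balanced between the directions, which does not test the scaling of these libraries. Each library is 1 mouse, and p-values measure the spread between mice within 1 flight and 1 ground run. Flight and ground mice with the same number are different animals, so no pairing was used. Their deviations over all genes tested correlated by -0.0182 to 0.145 in Nrf2-KO and by -0.0831 to 0.0889 in WT. This correlation does not test the split of stress-responsive genes between low and high numbers.

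Genes were named by rule. These are Nfe2l2, Nqo1 and Hmox1, up to 4 called members of each list with the smallest adjusted p, up to 2 against the majority, the first 3 markers of each cell type, up to 12 higher and 12 lower genes with the largest change (called, no overlap, mean TPM of at least 5, no clone names), and 6 with the smallest interaction p. The lists and members were chosen with earlier results of these data known. Alternatives comprised DESeq2 1.42.0, limma 3.58.1 on log2(TPM + 1) and log2(TPM + 0.1), RLE factors, no filter, a fit with mouse 04 or without WT, a block on mouse number, and leaving out each mouse. Another 3, chosen after seeing the data, were protein-coding TPM and leaving out either pair of mice. Promoter letters are from RefSeq. Some genes that the rule names are not reported here.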

Additional observations from a re-analysis of the deposited data

Results flagged for a closer look

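Single mice that stood away from the rest of their group were looked for with Dixon's test in 230 groups of 5 or 6 values, and 16 were found, where chance gives about 1 in 20 groups. In GC_KO mouse 04, Rag1 was at 4269 CPM (the other ground mice at 5010 to 5276), Dntt at 1096 CPM and Trp53inp1 at 1124 CPM, each the lowest of its group and still called lower in flight without that mouse. In GC_KO mouse 01, Hspa1a was at 38.2 CPM and Fas at 44.4 CPM. In GC_KO mouse 09, Oas2 was at 4.22 CPM, and in GC_KO mouse 11, Mir6236 was at 5.04 CPM against 0.826 to 1.87 in the other ground mice.

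In FL_KO mouse 12, Bst2 was at 40.1 CPM (the other flight mice at 33.8 to 34.8), Prss16 at 737 CPM, Fas at 25 CPM and Trav19 at 0.962 CPM. In FL_KO mouse 01, Il2ra was at 71.9 CPM and the histone share of all counts was 1.46%, with the other flight mice at 1.65% to 1.69%. In FL_KO mouse 02, Ms4a1 was at 9.94 CPM, in FL_KO mouse 09, Tcf7 was at 1001 CPM, and in FL_KO mouse 11, Nqo1 was at 28.5 CPM, against 22 to 22.7 in the other flight mice.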

How the results depend on the processing

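The count of genes higher in flight stayed within 1.5 times of 3150 under all alternatives (2726 to 3075 when 1 mouse was left out). A like count did not mean the same genes. Of all calls of the main fit, 94.8% were called in the same direction with DESeq2. On log2(TPM + 1), where 10158 genes were tested, 25.8% were, and on protein-coding TPM 44.2% were. The count of lower genes (3083) was 2530 to 3558 when 1 mouse was left out, but 295 on log2(TPM + 1), 291 on log2(TPM + 0.1) and 555 on protein-coding TPM, where the median of all genes was 0.16, 0.18 and 0.15 higher in flight. The interaction gave no gene in edgeR, 9 with DESeq2, 2 without GC_KO mice 01 and 04, 3 without mice 01 and 02 of both groups, and 0 to 1 when 1 mouse was left out (Gm15340 without GC_KO mouse 01, H2-Q6 without GC_KO mouse 04).

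A fit without WT gave 2983 higher and 2666 lower genes. The mouse number as a replicate block gave 2981 higher and 2942 lower genes. Same-numbered mice are different animals and the numbers did not pair them (r of 0.0573, 0.0094, -0.0182, 0.00842 and 0.145 for the 5 numbers, with 1 of 5 flight mice closest to its own number). The difference in total expected count ran from -709714 to -359907 when 1 mouse was left out, and passed the threshold without GC_KO mouse 04. The mitochondrial share ran from -0.207 to -0.00207 and the histone share from -1.06 to -0.946 percentage points.

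Of 112 genes named, 94 kept their direction and side of the threshold in all edgeR and DESeq2 alternatives. Reversals were among genes with a value under 0.3 on the log2 scale, except Zbtb16 (0.48, not called). On log2(TPM + 1), log2(TPM + 0.1) and protein-coding TPM, Il4ra was at 0.11, 0.11 and 0.05, Pecam1 at 0.19, 0.19 and 0.13, and Cd79b at 0.13, 0.14 and 0.08. Col1a1 was at 0.07 on protein-coding TPM, 0.02 without GC_KO mice 01 and 04 and 0.06 without mice 01 and 02 of both groups. Psmb11 was at -0.00 with the block, -0.04 without GC_KO mice 01 and 04 and -0.02 to 0.12 when 1 mouse was left out (lowest without GC_KO mouse 04). Tsc22d3 was at 0.18 without GC_KO mice 01 and 04 and -0.57 to 0.01 when 1 mouse was left out (highest without GC_KO mouse 01), and Zbtb16 at -0.16 without mice 01 and 02. The causes were not tested. Depth limits the alpha segments and other genes near 1 CPM.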

Other observations

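Other gene groups moved less or in both directions. Genes induced by receptor signalling during selection held 7 of 14 higher and 1 lower, but 2 higher without GC_KO mice 01 and 04 and 1 without mice 01 and 02 of both groups. Immediate early genes held 8 of 17 higher and 3 lower (median 0.27). Genes of apoptosis held 4 of 17 higher and 3 lower (7 lower without GC_KO mouse 04). These shares of 23.5% and 17.6% lay near those of all genes tested (19.3% and 18.9%). Genes of glycolysis held 1 of 18 higher and 5 lower. The medians of these 2 lists were -0.12 and -0.07, and on the TPM scale -0.01 relative to all genes for both.

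Neutrophil markers held 1 of 6 tested higher, erythroid markers 1 of 4 lower, and cold-inducible RNA-binding genes 1 of 2 lower. The 60 alpha joining segments were below the filter on low counts, so that the use of J segments was not analysed here.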
